A study of Homo sapiens with 39 samples.

Results

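The genes described here encode the proton pump that acidifies the lysosome, the cathepsin proteases that work in its lumen, and the LAMP glycoproteins of its membrane. They were taken by symbol, under a rule that uses no measured value. Every symbol of the expression table that named a subunit of the vacuolar proton pump (ATP6V0 and ATP6V1), the accessory proteins ATP6AP1 and ATP6AP2, the cathepsins A, B, C, D, F, H, K, L, O, S, V and Z, or LAMP1, LAMP2 and LAMP3 was taken. This gave 39 of 46706 symbols, of which 9 encode the membrane sector of the pump (V0), 13 its cytosolic sector (V1), 2 the accessory proteins, 12 cathepsins and 3 LAMPs. Total RNA was sequenced from HCC1428-LTED, a breast cancer cell line kept for a long time without estrogen, grown in charcoal-stripped serum. The treated cells were exposed for 24 hours to 300 or 30 nM of an estrogen receptor ligand (fulvestrant, SAR439859, GDC-0810, AZD9496, GDC-SAR or AZD-SAR), and the control cells received DMSO. By the labels, GDC-SAR carries the SAR439859 side chain on the GDC-0810 scaffold, and AZD-SAR carries the same side chain on the AZD9496 scaffold. Each of the 13 groups held 3 libraries, 39 in all, from this 1 estrogen-deprived line. No label says that the 3 came from separate cultures, so p-values measure the spread between libraries, which may be technical, and the series text speaks of duplicates where the labels give 3.

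The vacuolar proton pump is a rotary machine: V1 burns ATP on the cytosolic side, and V0 carries the protons through the membrane into lysosomes, endosomes and secretory vesicles. Most cathepsins are made as inactive precursors that mature in that acid and then break down proteins delivered by endocytosis and autophagy. The LAMPs coat the inner face of the lysosomal membrane, and LAMP2 also serves autophagy. In breast cancer cells CTSD is long known as a gene that estrogen induces, and the transcription factors TFEB, TFE3 and MITF bind CLEAR elements near many lysosomal genes.

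Values are TPM, transcripts per 1000000, a scale that corrects for transcript length and forces each library to the same total, so sequencing depth is unknown and no counting error can be given. Libraries listed 15818 to 26756 symbols above 0. The 3 libraries with 30 nM SAR439859 stood apart: their mean correlation with each other was 0.89 to 0.921 on the log scale, against 0.935 to 0.974 in the other groups. The small RNA SNORA76C took 61780 to 187900 TPM in treated libraries and 45650 to 62440 in DMSO libraries, and RN7SL1 took 2059 to 72770 in treated and 106500 to 114600 in DMSO libraries; because TPM is a share of a fixed total, these shares moved with treatment beside every comparison with DMSO, and their part in the member values was not tested. MALAT1 stood at 0 TPM in replicate 1 with 30 nM SAR439859 and in replicate 2 with 300 nM AZD-SAR. In all other libraries it stood at 55710 to 107900 TPM, and the part of this gap in the member values was not tested. Index sequences of 2 of the 3 DMSO libraries recur among treated libraries, no label names a sequencing pool, and a pool that set DMSO apart and the treatment cannot be told apart. PGR, GREB1 and TFF1, which estrogen induces, were called lower in all 12 comparisons with DMSO. All 7 luminal epithelial markers (ESR1, GATA3, FOXA1, KRT8, KRT18, KRT19, EPCAM) passed the expression filter. Of 9 myeloid and osteoclast markers only ACP5 passed, with sums over the 9 of 0 to 9.83 TPM in treated and 3.70 to 5.90 in DMSO libraries. Of 9 fibroblast and endothelial markers only COL1A1 passed, with sums of 9.34 to 24.0 TPM in treated and 7.79 to 9.97 in DMSO libraries. COL1A1 was called higher with both hybrids at both doses, beside the counts given for them below, and its part in them was not tested. In these bulk libraries fewer cells of a kind and less RNA per cell cannot be told apart.

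The members differed widely in level. ATP6V0C, the proton-carrying ring subunit c, averaged 778 TPM over the 39 libraries (lowest 616, highest 979), followed by the V1 subunits ATP6V1F at 526 and ATP6V1G1 at 405, the accessory protein ATP6AP2 at 329.5 and the carboxypeptidase CTSA at 220.0. Next came ATP6V1H at 174, ATP6AP1 at 172, LAMP2 at 161, CTSD at 160.0, ATP6V0E1 at 154 and ATP6V0E2 at 148, and the ranges of these 6 over the libraries overlapped one another. For the B, C and E subunits of V1 and the a subunit of V0, 1 form led, while the e subunit genes ATP6V0E1 and ATP6V0E2 stood at similar levels. ATP6V1B2 averaged 14.2 TPM and ATP6V1B1, its counterpart of kidney and inner ear, 1.10; ATP6V1C1 averaged 78.5 and ATP6V1C2 3.23; ATP6V1E1 averaged 61.5 and ATP6V1E2, mainly known from testis, 5.31. The stator subunit forms ATP6V0A1, ATP6V0A2 and ATP6V0A4 averaged 77.8, 6.03 and 6.38 TPM. Among cathepsins, CTSB averaged 60.2 TPM, CTSF 46.2, CTSH 32.4, CTSZ 28.0 and CTSL 24.4, while CTSO and CTSC averaged 5.36 and 5.13.

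**Figure D1:**
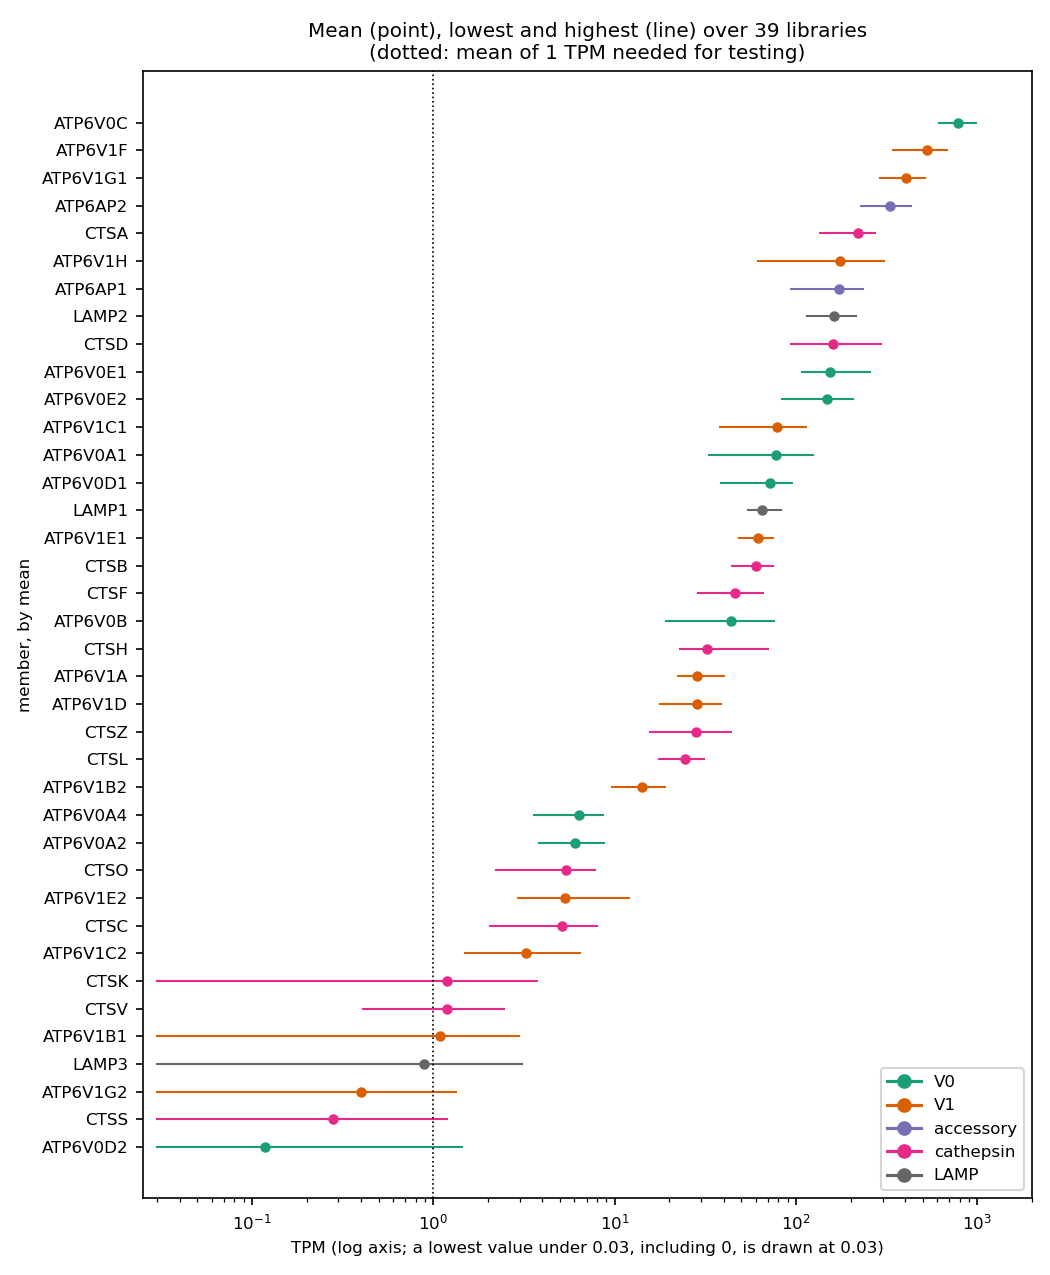
Level of each member in TPM on a log axis. Points are means over the 39 libraries, lines run from the lowest to the highest library, and colours mark V0, V1, accessory, cathepsin and LAMP genes. ATP6V0C stands highest at 778 TPM, 4 members lie left of the dotted line at a mean of 1 TPM, and ATP6V1G3 is not drawn because it was at 0 in every library.

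Only genes averaging 1 TPM or more across all 39 libraries were tested, and 34 of the 39 members were among them. The 5 left out were LAMP3, known from dendritic cells (mean 0.885 TPM), ATP6V1G2 of neurons (0.401), CTSS of antigen-presenting cells (0.280), ATP6V0D2 of osteoclasts and kidney (0.118) and ATP6V1G3 of kidney, which was at 0 TPM in all 39 libraries. Just inside the threshold were ATP6V1B1 (1.10), CTSV (1.18) and CTSK (1.19).

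How each ligand moved these genes relative to vehicle was tested with limma on log2(TPM + 1), on which scale all differences below are given. This scale understates the change of low genes. A gene is called where the Benjamini-Hochberg adjusted p over all 14404 genes of the comparison is under 0.05. At 300 nM the members called were 10 of 34 with fulvestrant (29.4%, against 19.2% of all genes), 8 with SAR439859 (23.5%, against 24.1%), 11 with GDC-0810 (32.4%, against 16%), 4 with AZD9496 (11.8%, against 5.93%), 14 with GDC-SAR (41.2%, against 20.3%) and 15 with AZD-SAR (44.1%, against 25.6%). At 30 nM they were 7 with fulvestrant (20.6%, against 19.1%), 14 with SAR439859 (41.2%, against 25.5%), 8 with GDC-0810 (23.5%, against 16.8%), 8 with AZD9496 (23.5%, against 11.3%), 11 with GDC-SAR (32.4%, against 22.5%) and 13 with AZD-SAR (38.2%, against 20.6%). The share with 300 nM SAR439859 and that with 30 nM fulvestrant lay near the share of all genes. All 12 comparisons share the 3 DMSO libraries. Higher and lower members were mixed, and the median difference of the members was 0.04 to 0.29 over the 12 comparisons, against 0.00 to 0.19 for all genes. With 300 nM fulvestrant, 6 members were higher and 4 lower, against 11.1% and 8.12% of all genes. With 300 nM SAR439859, 5 members were higher and 3 lower, against 11.2% and 12.8% of all genes. With 300 nM GDC-0810, 5 members were higher and 6 lower, against 6.99% and 9.04% of all genes. With 300 nM AZD9496, 3 members were higher and 1 lower, against 3.71% and 2.21% of all genes. With 300 nM GDC-SAR, 9 members were higher and 5 lower, against 9.76% and 10.5% of all genes. With 300 nM AZD-SAR, 9 members were higher and 6 lower, against 12.7% and 12.8% of all genes. With 30 nM fulvestrant, 4 members were higher and 3 lower, against 11.3% and 7.82% of all genes. With 30 nM SAR439859, 10 members were higher and 4 lower, against 15.3% and 10.2% of all genes. With 30 nM GDC-0810, 4 members were higher and 4 lower, against 7.95% and 8.83% of all genes. With 30 nM AZD9496, 8 members were higher and 0 lower, against 9.21% and 2.05% of all genes. With 30 nM GDC-SAR, 8 members were higher and 3 lower, against 11.4% and 11.1% of all genes. With 30 nM AZD-SAR, 9 members were higher and 4 lower, against 11.9% and 8.66% of all genes. The lower counts with fulvestrant, GDC-SAR and AZD-SAR at both doses and with 30 nM SAR439859 each include ATP6V1B1. That gene passed the expression filter only through its DMSO libraries, where it was high.

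Median-of-ratios scaling, which divides each library by a factor set by its middle genes, changed some of these splits. With 30 nM AZD9496 the median difference of all genes was 0.19 as deposited and 0.00 after scaling, a shift of -0.18, and the members called became 4 higher and 2 lower. After scaling 5 members were higher and 4 lower with 30 nM SAR439859, 4 and 4 with 300 nM fulvestrant and 3 and 2 with 300 nM AZD9496. The counts also moved when 1 library was left out. For these refits the share of all genes called is not given, so the moves cannot be read as particular to the members. With 300 nM fulvestrant 6 members were called without fulvestrant replicate 1 or 2 or DMSO replicate 1 or 3. With 300 nM GDC-0810 6 were called without GDC-0810 replicate 1 or DMSO replicate 2 or 3. With 300 nM AZD9496 there were 2 without AZD9496 replicate 1 and 1 without AZD9496 replicate 2 or DMSO replicate 1. With 300 nM GDC-SAR there were 7 without GDC-SAR replicate 2, 8 without GDC-SAR replicate 1 or DMSO replicate 1 or 2, and 9 without DMSO replicate 3, and with 300 nM AZD-SAR 9 without AZD-SAR replicate 2. At 30 nM there were 8 with SAR439859 without DMSO replicate 2 or 3, 5 with GDC-0810 without GDC-0810 replicate 1 or DMSO replicate 1 or 2, 4 with AZD9496 without AZD9496 replicate 1 or DMSO replicate 2 and 5 without DMSO replicate 3, and 8 with AZD-SAR without AZD-SAR replicate 1. The members whose call held without each library in turn were 4 with fulvestrant, 6 with SAR439859, 6 with GDC-0810, 1 with AZD9496, 6 with GDC-SAR and 7 with AZD-SAR at 300 nM, and 5, 7, 5, 4, 6 and 7 at 30 nM.

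**Figure D2:**
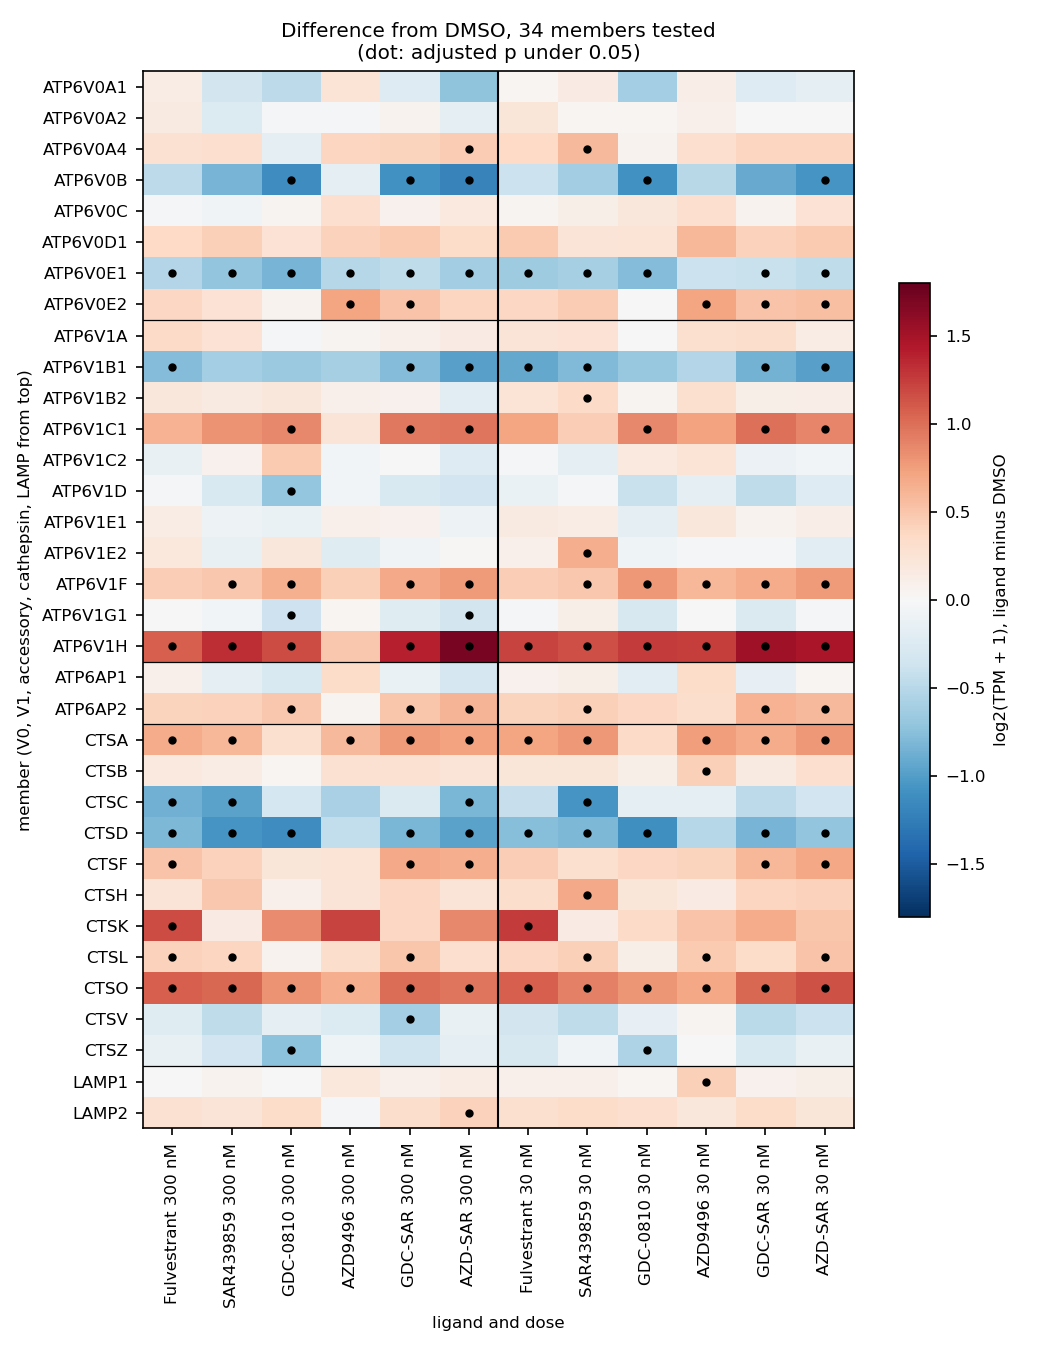
Difference from DMSO for the 34 members tested, as log2(TPM + 1) of the ligand group minus the DMSO group. Rows are members ordered V0, V1, accessory, cathepsin and LAMP, columns are ligands at 300 nM (left of the line) and 30 nM, red is higher and blue lower than DMSO, and a dot marks an adjusted p under 0.05. ATP6V1H, CTSO, CTSA and ATP6V1F form red rows, and CTSD, ATP6V0E1 and ATP6V0B form blue rows.

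In the membrane sector of the pump, ATP6V0E1 was called lower in 11 of the 12 comparisons and its paralogue ATP6V0E2 was called higher in 5. Called or not, the difference from DMSO was below 0 in all 12 for ATP6V0E1 and above 0 in 11 for ATP6V0E2. ATP6V0E1 (chromosome 5, 172983757 to 173035445, plus strand, GRCh38, GENCODE 29) encodes the small e subunit. At 300 nM ATP6V0E1 stood at 143, 146 and 169.7 TPM with fulvestrant, 124, 143 and 136 with SAR439859, 108, 136 and 126 with GDC-0810, 155, 159 and 148 with AZD9496, 155, 167 and 157 with GDC-SAR and 129, 144 and 158 with AZD-SAR, against 257, 196 and 212 TPM with DMSO. At 30 nM ATP6V0E1 stood at 129.8, 140.1 and 156 TPM with fulvestrant, 169, 143 and 128 with SAR439859, 116, 117 and 155 with GDC-0810, 141, 171 and 199 with AZD9496, 137, 183 and 183 with GDC-SAR and 139, 159 and 187 with AZD-SAR. Every treated library lay below the 3 DMSO libraries except 1 with 30 nM AZD9496. The differences at 300 nM were -0.53 with fulvestrant, -0.71 with SAR439859, -0.83 with GDC-0810, -0.51 with AZD9496, -0.46 with GDC-SAR and -0.62 with AZD-SAR (SE 0.145, adjusted p 0.000226 to 0.0301). At 30 nM they were -0.63 with fulvestrant, -0.59 with SAR439859, -0.77 with GDC-0810, -0.38 with AZD9496, -0.40 with GDC-SAR and -0.45 with AZD-SAR, called with 5 of the 6 ligands (adjusted p = 0.0869 with AZD9496, 0.00428 with scaling). The calls with SAR439859 and GDC-0810 at both doses, with 30 nM fulvestrant and with 300 nM AZD-SAR held without each library in turn. With only the 6 libraries compared, the calls with 30 nM SAR439859 (adjusted p = 0.0763), 300 nM AZD9496 (0.0632), 30 nM GDC-SAR (0.103) and 30 nM AZD-SAR (0.0687) were lost. The 5 that did not hold without each library were lost without DMSO replicate 1 (adjusted p 0.0741 to 0.21), and some also without DMSO replicate 3 or a treated library (up to 0.256 without 30 nM GDC-SAR replicate 1). ATP6V0E1 has processed pseudogenes, the highest of which, ATP6V0E1P2, reached 20.4 TPM, and counting could have split reads among these copies.

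ATP6V0E2 (chromosome 7, 149872968 to 149891204, plus strand) encodes the alternative e subunit. It stood at 192, 196 and 167 TPM with 300 nM AZD9496 and 188, 171 and 192 with 30 nM AZD9496, 136, 169 and 176 with 300 nM GDC-SAR, 143, 174 and 165 with 30 nM GDC-SAR and 154, 173 and 162 with 30 nM AZD-SAR, against 105, 114 and 116 TPM with DMSO. All libraries of these 5 groups lay above the 3 DMSO libraries. The differences were 0.72 with 300 nM AZD9496 (adjusted p = 0.0154), 0.71 with 30 nM AZD9496 (adjusted p = 0.0109), 0.51 with 300 nM GDC-SAR (adjusted p = 0.0471), 0.51 with 30 nM GDC-SAR (adjusted p = 0.0423) and 0.54 with 30 nM AZD-SAR (adjusted p = 0.0339), SE 0.183. With 30 nM AZD9496 the call held without each library. The other 4 were lost without DMSO replicate 1 (adjusted p 0.0657 to 0.128) and without at least 2 other libraries each, up to 0.14 without 300 nM GDC-SAR replicate 2. In the other 7 groups ATP6V0E2 differed from DMSO by -0.01 to 0.46 and was not called. The antisense gene ATP6V0E2-AS1 overlaps it, at 0.492 to 3.24 TPM in treated and 0.312 to 0.743 in DMSO libraries, and the sources used here do not say whether counting used strand.

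ATP6V0B (chromosome 1, 43974487 to 43978295, plus strand) encodes the c'' subunit of the proton-carrying ring. It stood at 22.0, 30.5 and 44.1 TPM with 300 nM GDC-0810, 26.8, 22.5 and 53.0 with 300 nM GDC-SAR, 19.2, 22.0 and 57.9 with 300 nM AZD-SAR, 21.1, 37.0 and 40.9 with 30 nM GDC-0810 and 25.2, 34.9 and 37.6 with 30 nM AZD-SAR, against 67.5, 75.6 and 62.8 TPM with DMSO. Each of these 15 libraries lay below the 3 DMSO libraries, with wide spread in the AZD-SAR and GDC-SAR groups at 300 nM. The differences were -1.12 with 300 nM GDC-0810 (adjusted p = 0.0361), -1.08 with 300 nM GDC-SAR (adjusted p = 0.0352), -1.20 with 300 nM AZD-SAR (adjusted p = 0.0158), -1.08 with 30 nM GDC-0810 (adjusted p = 0.0408) and -1.07 with 30 nM AZD-SAR (adjusted p = 0.0376), SE 0.368. All 5 calls were lost without single libraries: without replicate 1 or 2 of the ligand group and without DMSO replicate 2 in each of the 5, and without DMSO replicates 1 and 3 in all but 300 nM AZD-SAR (adjusted p up to 0.233). With only the 6 libraries compared, those with 300 nM AZD-SAR (0.0907) and 300 nM GDC-SAR (0.0558) were lost, and with no filter on mean TPM all but that with 300 nM AZD-SAR (0.0908 to 0.112). In the other 7 groups the difference was -0.91 to -0.17 and not called.

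The other V0 members moved less. ATP6V0A4, the stator form of kidney, was called higher by 0.46 with 300 nM AZD-SAR (adjusted p = 0.0307) and 0.58 with 30 nM SAR439859 (adjusted p = 0.00631), and the AZD-SAR call was lost without AZD-SAR replicate 1 or 2 or DMSO replicate 1 or 2 (adjusted p up to 0.14). ATP6V0A1, ATP6V0A2, the ring gene ATP6V0C and ATP6V0D1, which couples the ring to V1, were called against DMSO with no ligand at either dose. Their differences ran from -0.73 to 0.24, -0.25 to 0.21, -0.06 to 0.30 and 0.23 to 0.60. ATP6V0D1 lay above all 3 DMSO libraries in 32 of 36 treated libraries, at 38.4 to 95.2 TPM (median 74.2) in treated and 48.0 to 59.1 in DMSO libraries.

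In the cytosolic sector, the largest rise was in ATP6V1H (chromosome 8, 53715557 to 53843558, minus strand), which encodes the regulatory H subunit that silences ATP hydrolysis when V1 comes off V0. At 300 nM ATP6V1H stood at 179.5, 174 and 119 TPM with fulvestrant, 237, 161 and 167 with SAR439859, 190.1, 177 and 137 with GDC-0810, 152, 87.8 and 80.9 with AZD9496, 219, 196 and 172 with GDC-SAR and 304, 288 and 158 with AZD-SAR, against 87.2, 61.9 and 72.1 TPM with DMSO. At 30 nM ATP6V1H stood at 236, 123 and 174 TPM with fulvestrant, 219.8, 185 and 108 with SAR439859, 214, 190.5 and 133 with GDC-0810, 204, 152 and 172 with AZD9496, 248, 196 and 195 with GDC-SAR and 228, 206 and 179 with AZD-SAR. Of 36 treated libraries 35 lay above the 3 DMSO libraries, and the 1 below the highest DMSO value belonged to 300 nM AZD9496. The differences at 300 nM were 1.08 with fulvestrant, 1.33 with SAR439859, 1.18 with GDC-0810, 0.49 with AZD9496, 1.40 with GDC-SAR and 1.70 with AZD-SAR (SE 0.275), called with each ligand (adjusted p 3.03e-05 to 0.00554) but AZD9496 (adjusted p = 0.35). At 30 nM the differences were 1.22 with fulvestrant, 1.16 with SAR439859, 1.26 with GDC-0810, 1.25 with AZD9496, 1.53 with GDC-SAR and 1.47 with AZD-SAR (adjusted p 0.000157 to 0.00313). All 11 calls held without each library in turn. That with 30 nM SAR439859 was lost when only the 6 libraries compared were fitted (adjusted p = 0.0658). Libraries are numbered here in the order listed, and ATP6V1H was highest in the first library in 13 of 13 groups, ATP6AP2 in 12, and ATP6V1F and LAMP2 in 10. Of all genes tested, 5.53% were highest in the first library in 10 or more groups. No label says what the order stands for, and its part in the results was not tested.

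ATP6V1F (chromosome 7, 128862826 to 128865844, plus strand), the rotor subunit F, also rose. At 300 nM ATP6V1F stood at 586, 465 and 410.5 TPM with fulvestrant, 564, 537 and 393 with SAR439859, 580.2, 589 and 479.9 with GDC-0810, 579, 452 and 405 with AZD9496, 614, 569.9 and 517 with GDC-SAR and 626, 682 and 511 with AZD-SAR, against 369, 341 and 347 TPM with DMSO. At 30 nM ATP6V1F stood at 559.7, 441 and 453 TPM with fulvestrant, 563, 473 and 446 with SAR439859, 674, 581 and 575 with GDC-0810, 666, 447 and 513 with AZD9496, 551, 513 and 632 with GDC-SAR and 682, 568 and 559 with AZD-SAR. All 36 treated libraries lay above the 3 DMSO libraries. The differences were 0.45 with fulvestrant, 0.48 with SAR439859, 0.63 with GDC-0810, 0.42 with AZD9496, 0.68 with GDC-SAR and 0.77 with AZD-SAR at 300 nM (SE 0.163, adjusted p 0.000736 to 0.131) and 0.45 with fulvestrant, 0.48 with SAR439859, 0.79 with GDC-0810, 0.60 with AZD9496, 0.67 with GDC-SAR and 0.77 with AZD-SAR at 30 nM (adjusted p 0.000981 to 0.0505). It was not called with fulvestrant at either dose (adjusted p = 0.0505 in both) or with 300 nM AZD9496 (adjusted p = 0.131). The calls with GDC-0810, GDC-SAR and AZD-SAR held without each library in turn. Those with SAR439859 were lost without its replicate 1 at 30 nM or replicate 1 or 2 at 300 nM, or without DMSO replicate 2 or 3 (adjusted p up to 0.156), and that with 30 nM AZD9496 without its replicate 1 or DMSO replicate 2 or 3 (up to 0.131). Scaling ended those with 30 nM AZD9496 (0.139) and 30 nM SAR439859 (0.0877), and these and that with 300 nM SAR439859 were also lost with only the 6 libraries compared (0.0573 to 0.07). KCP, on the opposite strand, overlaps ATP6V1F and stood at 0 to 0.411 TPM in treated and 0 to 0.202 in DMSO libraries.

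ATP6V1C1 (chromosome 8, 103021063 to 103073051, plus strand), the subunit C that joins V1 to V0, was called higher with GDC-0810, GDC-SAR and AZD-SAR. It stood at 108, 86.7 and 64.6 TPM with 300 nM GDC-0810, 104, 114 and 61.7 with 300 nM GDC-SAR and 108, 110.3 and 62.0 with 300 nM AZD-SAR, against 46.4, 48.1 and 43.7 TPM with DMSO. With 30 nM ATP6V1C1 stood at 98.8, 68.9 and 87.9 TPM with GDC-0810, 109, 92.8 and 78.3 with GDC-SAR and 83.8, 91.7 and 81.2 with AZD-SAR. All 18 libraries lay above the DMSO libraries. The rises were 0.87 with 300 nM GDC-0810 (adjusted p = 0.0481), 0.96 with 300 nM GDC-SAR (adjusted p = 0.0234), 0.96 with 300 nM AZD-SAR (adjusted p = 0.0189), 0.86 with 30 nM GDC-0810 (adjusted p = 0.0482), 0.99 with 30 nM GDC-SAR (adjusted p = 0.0176) and 0.88 with 30 nM AZD-SAR (adjusted p = 0.0371), SE 0.302. Each of these 6 calls was lost without replicate 1 of its ligand group and without DMSO replicate 3, and most without other single libraries too (adjusted p up to 0.209, without 300 nM GDC-0810 replicate 1). In the other 6 groups the difference was 0.23 to 0.81 and not called, although with 300 nM SAR439859 (adjusted p = 0.0504) scaling gave 0.0442. Scaling ended the call with 30 nM AZD-SAR (0.0513), and no filter on mean TPM ended 4 of the 6 (0.0613 to 0.13).

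ATP6V1B1 (chromosome 2, 70935868 to 70965431, plus strand), the kidney form of the ATP-binding B subunit, was low. It averaged 1.10 TPM over the 39 libraries but 0.991 over the 36 treated ones, so it was tested because of its DMSO libraries, and its differences are given as a description. The adjusted p-values below carry that selection and are not evidence of a fall. The counts of members called given above hold it in 7 comparisons. It stood at 0.900, 0.843 and 1.07 TPM with 300 nM fulvestrant, 0.665, 0.742 and 1.47 with 300 nM GDC-SAR and 0.845, 1.19 and 0.180 with 300 nM AZD-SAR, against 2.98, 2.16 and 1.89 TPM with DMSO. With 30 nM it stood at 0.723, 0.589 and 0.934 TPM with fulvestrant, 1.97, 1.33 and 0 with SAR439859, 0.896, 0.916 and 0.706 with GDC-SAR and 0.595, 0.928 and 0.559 with AZD-SAR. Only 1 treated library, with 30 nM SAR439859, reached the DMSO range. The 7 called differences were -0.77 with 300 nM fulvestrant (adjusted p = 0.044), -0.78 with 300 nM GDC-SAR (adjusted p = 0.0404), -0.98 with 300 nM AZD-SAR (adjusted p = 0.00838), -0.93 with 30 nM fulvestrant (adjusted p = 0.0157), -0.80 with 30 nM SAR439859 (adjusted p = 0.0301), -0.85 with 30 nM GDC-SAR (adjusted p = 0.0236) and -0.97 with 30 nM AZD-SAR (adjusted p = 0.0106), SE 0.272. Each was lost without DMSO replicate 1 (adjusted p 0.0572 to 0.163), except that with 300 nM AZD-SAR, which was lost without AZD-SAR replicate 3 (0.0609). Other single libraries ended some of them too, up to 0.32 without 30 nM SAR439859 replicate 3, and a pseudocount of 0.1 ended 5 of the 7 (0.0778 to 0.206). With only the 6 libraries compared, those with 30 nM SAR439859 (0.304), 300 nM GDC-SAR (0.0509) and 300 nM AZD-SAR (0.0595) were lost. VAX2 and ATP6V1B1-AS1 overlap it, at up to 2 and 2.92 TPM in treated and 0.626 and 2.36 in DMSO libraries.

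Among the remaining V1 members, ATP6V1G1, part of the peripheral stalk, was called lower, at -0.37 with 300 nM GDC-0810 (adjusted p = 0.039) and -0.33 with 300 nM AZD-SAR (adjusted p = 0.0445), and ATP6V1D, the central shaft, was called lower, at -0.70 with 300 nM GDC-0810 (adjusted p = 0.0171). ATP6V1E2 and ATP6V1B2 were called higher with 30 nM SAR439859 alone, by 0.66 and 0.34 (adjusted p = 0.0219 and 0.0452). These 5 calls were each lost without several single libraries, among them DMSO replicates 2 and 3 in every case (adjusted p up to 0.273 for ATP6V1G1, 0.0908 for ATP6V1D, 0.155 for ATP6V1E2 and 0.199 for ATP6V1B2). The catalytic A subunit gene ATP6V1A, the stalk gene ATP6V1E1 and ATP6V1C2 were called in none of the 12 comparisons (differences -0.02 to 0.35, -0.16 to 0.20 and -0.24 to 0.47).

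**Figure D3:**
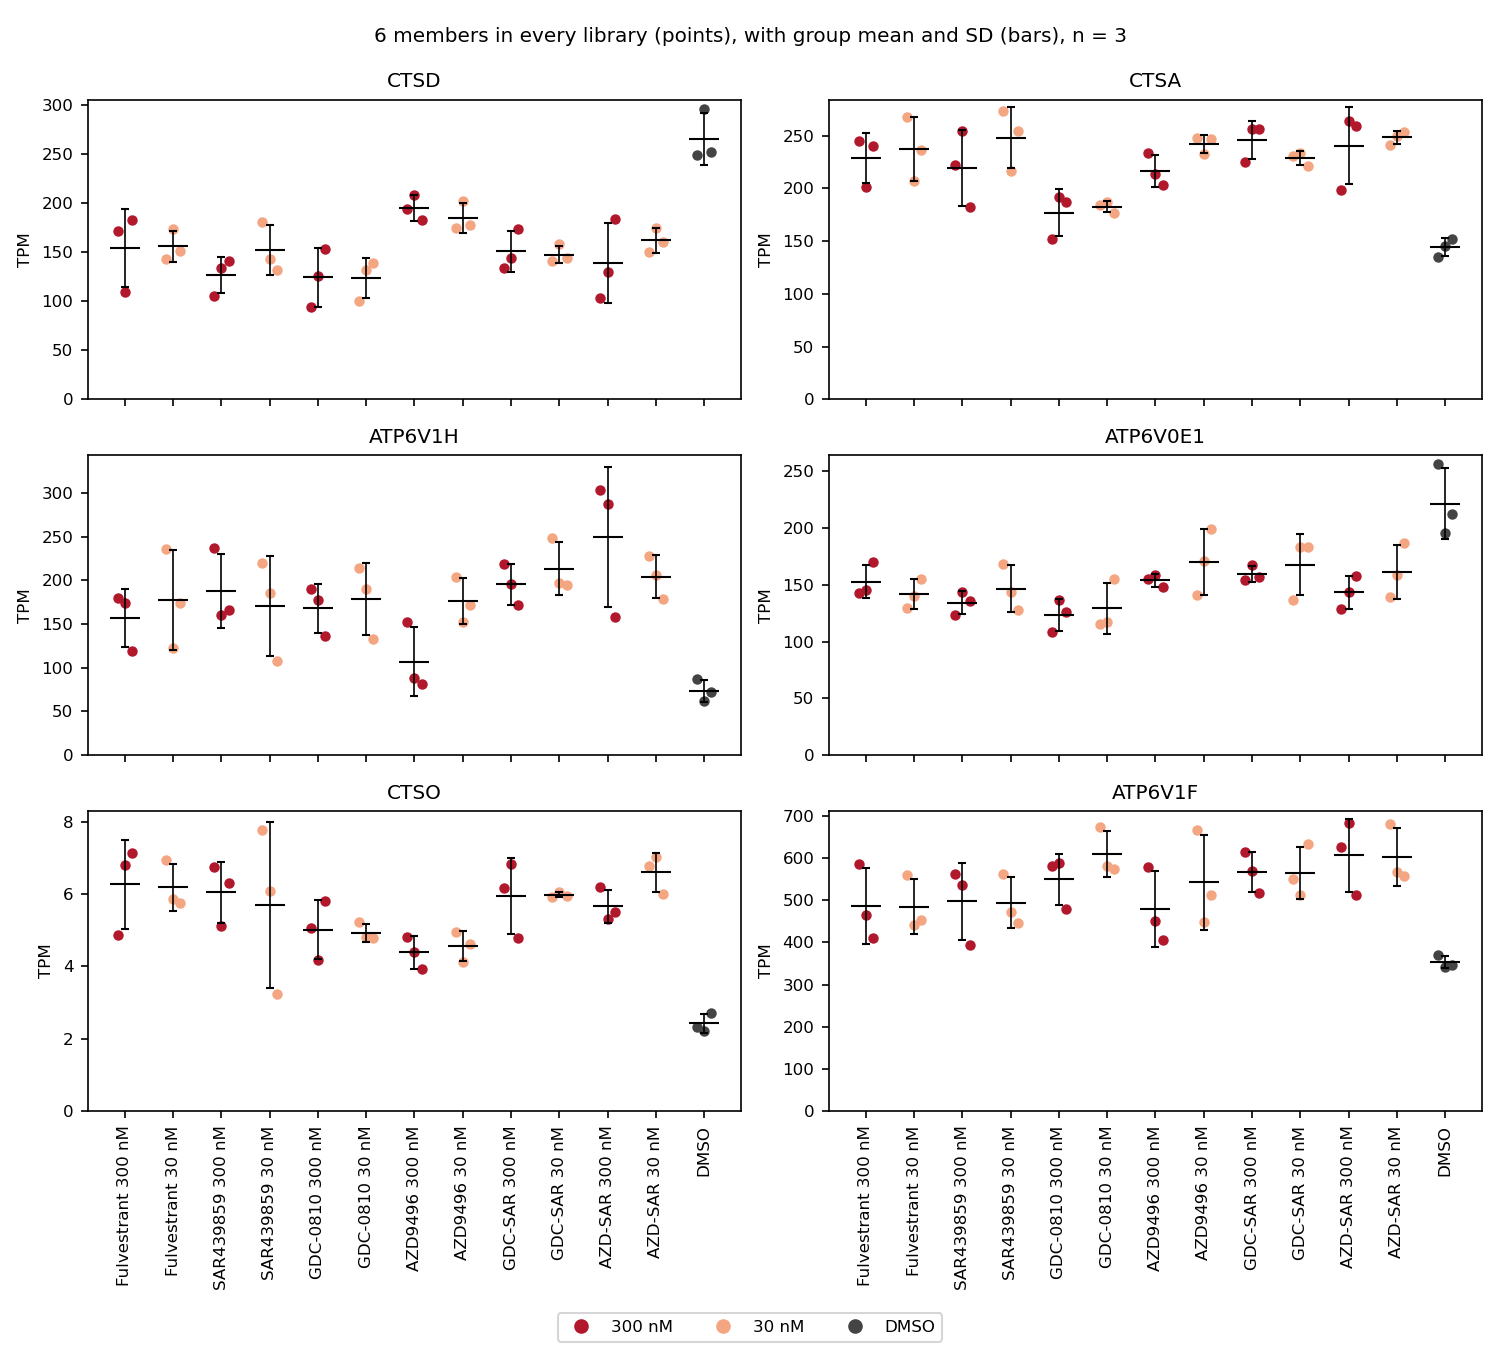
TPM of 6 members in every library. Points are libraries, horizontal marks and bars are group means ± SD (n = 3), ligands run along the x axis with 300 nM left of 30 nM, and DMSO is at the right. CTSD lies below the DMSO libraries in all 36 treated libraries, and CTSO and ATP6V1F lie above them in all 36.

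Of the accessory proteins, ATP6AP2 (chromosome X, 40579372 to 40606848, plus strand), also called the prorenin receptor, assists assembly of the pump. It stood at 415, 326 and 306 TPM with 300 nM GDC-0810, 356, 385 and 307 with 300 nM GDC-SAR and 432, 413 and 296 with 300 nM AZD-SAR, against 271, 228 and 242 TPM with DMSO. With 30 nM ATP6AP2 stood at 336, 324 and 334 TPM with SAR439859, 415, 346 and 385 with GDC-SAR and 421, 347 and 348 with AZD-SAR. All 18 libraries lay above the DMSO libraries. The rises were 0.49 with 300 nM GDC-0810 (adjusted p = 0.032), 0.50 with 300 nM GDC-SAR (adjusted p = 0.0237), 0.61 with 300 nM AZD-SAR (adjusted p = 0.00483), 0.43 with 30 nM SAR439859 (adjusted p = 0.0446), 0.63 with 30 nM GDC-SAR (adjusted p = 0.00437) and 0.59 with 30 nM AZD-SAR (adjusted p = 0.0078), SE 0.158. Those with 30 nM GDC-SAR and 300 nM AZD-SAR held without each library. The calls with 300 nM GDC-0810, 300 nM GDC-SAR and 30 nM SAR439859 were lost without DMSO replicate 2 or 3 and without their replicate 1 (adjusted p up to 0.196), with GDC-SAR also without its replicate 2 and with SAR439859 without any of its 3. That with 30 nM AZD-SAR was lost without its replicate 1 (0.054). With only the 6 libraries compared, the calls with 300 nM AZD-SAR (0.0609), 300 nM GDC-0810 (0.0775) and 30 nM SAR439859 (0.063) were lost, the last also with scaling (0.172). All 12 differences of ATP6AP2 from DMSO were above 0 (0.05 to 0.63), and 33 of 36 treated libraries lay above the 3 DMSO libraries. ATP6AP2 averaged 331 TPM both with 30 nM SAR439859, where it was called, and with 300 nM SAR439859, where it was not. With 300 and 30 nM fulvestrant, also not called, it averaged 329.5 and 326 TPM. ATP6AP1, which guards assembly of V0, was called against DMSO with no ligand (differences -0.31 to 0.33) and stood at 93.8 to 235 TPM in treated and 160.5 to 178 in DMSO libraries.

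Among the cathepsins, CTSD, the aspartyl protease, fell and CTSA, a serine carboxypeptidase that also protects lysosomal glycosidases, rose. CTSD (chromosome 11, 1752752 to 1764573, minus strand) stood at 171, 109 and 182 TPM with fulvestrant, 105, 134 and 141 with SAR439859, 93.5, 126 and 153 with GDC-0810, 194, 208 and 182 with AZD9496, 134, 144 and 174 with GDC-SAR and 104, 129.7 and 183 with AZD-SAR at 300 nM, against 248, 295 and 252 TPM with DMSO. At 30 nM CTSD stood at 143, 173 and 151 TPM with fulvestrant, 180.4, 143 and 132 with SAR439859, 100.4, 132 and 139 with GDC-0810, 174, 202 and 177 with AZD9496, 141, 158 and 144 with GDC-SAR and 150.1, 175 and 160.3 with AZD-SAR. All 36 treated libraries lay below the 3 DMSO libraries, the AZD9496 groups nearest to them. CTSD averaged 124 ± 29.9 TPM with 300 nM GDC-0810, 195 ± 12.9 with 300 nM AZD9496 and 265 ± 26.1 with DMSO (SD, n = 3 each). The differences at 300 nM were -0.81 with fulvestrant, -1.07 with SAR439859, -1.11 with GDC-0810, -0.44 with AZD9496, -0.82 with GDC-SAR and -0.96 with AZD-SAR (SE 0.19, adjusted p 0.000107 to 0.00267 without AZD9496). At 30 nM they were -0.76 with fulvestrant, -0.81 with SAR439859, -1.10 with GDC-0810, -0.52 with AZD9496, -0.84 with GDC-SAR and -0.71 with AZD-SAR (adjusted p 0.000214 to 0.00805 without AZD9496). All 10 calls held without each library in turn. With AZD9496 CTSD was not called (adjusted p = 0.193 at 300 nM and 0.075 at 30 nM), but with scaling it was (0.0397 and 0.00486). AC068580.4 and AC068580.1 overlap CTSD on its strand and AC068580.3 on the other, and reads that they share could be counted to either gene.

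At 300 nM CTSA (chromosome 20, 45890144 to 45898820, plus strand) stood at 245, 202 and 240.5 TPM with fulvestrant, 222, 254 and 182 with SAR439859, 152, 192 and 187 with GDC-0810, 233, 213 and 204 with AZD9496, 226, 256 and 256 with GDC-SAR and 198, 264 and 259 with AZD-SAR, against 135, 145 and 152 TPM with DMSO. At 30 nM CTSA stood at 268, 207 and 236 TPM with fulvestrant, 273, 217 and 254 with SAR439859, 185, 187 and 177 with GDC-0810, 248, 232 and 246 with AZD9496, 230.4, 234 and 221 with GDC-SAR and 242, 249.7 and 253 with AZD-SAR. Of 36 treated libraries 35 lay above the DMSO libraries, and the lowest, with 300 nM GDC-0810, stood within the DMSO range. The differences at 300 nM were 0.66 with fulvestrant, 0.59 with SAR439859, 0.29 with GDC-0810, 0.58 with AZD9496, 0.77 with GDC-SAR and 0.72 with AZD-SAR (SE 0.122, adjusted p 3.09e-05 to 0.00291 without GDC-0810). At 30 nM they were 0.71 with fulvestrant, 0.77 with SAR439859, 0.34 with GDC-0810, 0.75 with AZD9496, 0.66 with GDC-SAR and 0.78 with AZD-SAR (adjusted p 1.86e-05 to 0.000195 without GDC-0810). All 10 calls held without each library in turn, and with GDC-0810 CTSA was not called (adjusted p = 0.102 at 300 nM and 0.0517 at 30 nM), but was with scaling (0.0343 and 0.018). NEURL2 and PLTP, on the opposite strand, overlap CTSA, at 0 to 2.81 and 0 to 0.913 TPM in treated and 0 to 0.603 and 0 to 0.0959 in DMSO libraries.

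The promoters of CTSD and CTSA are shown because these 2 genes moved in opposite directions, and that of LAMP1 because it is rich in the motifs searched. Each is 300 bases, from 250 before to 50 after a start given by RefSeq on GRCh38.p14, read 5′ to 3′ on the strand of the gene. CTSD lies at chr11:1763878-1764177 (minus strand), CTSA at chr20:45891085-45891384 (plus) and LAMP1 at chr13:113296989-113297288 (plus). The CTSD and CTSA windows lie inside the GENCODE spans given above, which begin farther upstream. Capitals mark matches on either strand to the estrogen response element half-site GGTCA, the E-box CACGTG and the CLEAR core TCACGTGA, which contains the E-box, and matches may overlap.
CTSD: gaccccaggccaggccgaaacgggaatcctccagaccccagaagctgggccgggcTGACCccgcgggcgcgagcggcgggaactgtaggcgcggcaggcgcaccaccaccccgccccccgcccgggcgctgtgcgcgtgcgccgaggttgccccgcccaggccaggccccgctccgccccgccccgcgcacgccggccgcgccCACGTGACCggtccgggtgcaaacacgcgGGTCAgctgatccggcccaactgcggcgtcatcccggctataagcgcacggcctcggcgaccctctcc
CTSA: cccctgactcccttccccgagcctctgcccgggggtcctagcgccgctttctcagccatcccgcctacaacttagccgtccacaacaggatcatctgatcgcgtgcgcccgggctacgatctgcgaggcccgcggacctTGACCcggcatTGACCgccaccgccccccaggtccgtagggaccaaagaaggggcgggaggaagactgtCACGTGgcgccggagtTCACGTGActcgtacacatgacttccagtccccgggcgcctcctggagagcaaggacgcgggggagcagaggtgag
LAMP1: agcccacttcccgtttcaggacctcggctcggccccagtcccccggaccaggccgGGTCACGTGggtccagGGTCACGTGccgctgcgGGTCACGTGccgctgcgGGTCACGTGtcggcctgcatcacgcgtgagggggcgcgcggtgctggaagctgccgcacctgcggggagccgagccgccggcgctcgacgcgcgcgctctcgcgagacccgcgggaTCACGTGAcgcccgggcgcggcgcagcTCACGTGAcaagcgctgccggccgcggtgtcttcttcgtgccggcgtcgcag
The CTSD window held 3 half-sites, 1 E-box and 0 CLEAR cores, that of CTSA 2 half-sites, 2 E-boxes and 1 CLEAR core, and that of LAMP1 4 half-sites, 6 E-boxes and 2 CLEAR cores. No promoter was found for 13 members, among them CTSO, ATP6V1H and ATP6V0E1, which had the most calls against DMSO, and ATP6V1C1 and LAMP2. The motif shares below therefore leave them out. Promoters were found for 26 of the 39 members (33 windows). Of these windows 12.1% held a CLEAR core (ATP6V0D1, ATP6V1G1, CTSA and LAMP1), against 0.98% of all 35116 promoters of the same length, 27.3% an E-box, against 7.26%, 57.6% a half-site, against 37.4%, and 69.7% a GC box (GGGCGG), against 45%. The full estrogen response element, GGTCA and TGACC around 3 free bases, was in 0 of the 33 windows and in 0.057% of all promoters. A match says only that these letters are present.

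CTSO (chromosome 4, 155924118 to 155953917, minus strand), a cysteine protease, was the member called higher with each ligand at both doses. At 300 nM CTSO stood at 4.87, 6.80 and 7.14 TPM with fulvestrant, 6.74, 5.11 and 6.30 with SAR439859, 5.07, 4.17 and 5.80 with GDC-0810, 4.83, 4.41 and 3.93 with AZD9496, 6.18, 6.84 and 4.79 with GDC-SAR and 6.18, 5.32 and 5.50 with AZD-SAR, against 2.33, 2.21 and 2.72 TPM with DMSO. At 30 nM CTSO stood at 6.94, 5.86 and 5.76 TPM with fulvestrant, 7.78, 6.09 and 3.23 with SAR439859, 5.22, 4.80 and 4.78 with GDC-0810, 4.96, 4.13 and 4.62 with AZD9496, 5.93, 6.06 and 5.96 with GDC-SAR and 6.78, 7.03 and 6.00 with AZD-SAR. All 36 treated libraries lay above the DMSO libraries. The rises were 1.07 with fulvestrant, 1.04 with SAR439859, 0.81 with GDC-0810, 0.66 with AZD9496, 1.01 with GDC-SAR and 0.96 with AZD-SAR at 300 nM (SE 0.179, adjusted p 5.16e-05 to 0.0239) and 1.07 with fulvestrant, 0.91 with SAR439859, 0.80 with GDC-0810, 0.70 with AZD9496, 1.03 with GDC-SAR and 1.15 with AZD-SAR at 30 nM (adjusted p 2e-05 to 0.00976). The 10 calls with ligands other than AZD9496 held without each library in turn. That with 300 nM AZD9496 was lost without AZD9496 replicate 1 or 2 or DMSO replicate 1 or 2 (adjusted p 0.0711 to 0.105), and that with 30 nM AZD9496 without AZD9496 replicate 1 or DMSO replicate 2 (0.051 and 0.052). With only the 6 libraries compared, those with 30 nM SAR439859 (0.134) and 300 nM AZD9496 (0.0544) were lost.

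CTSL (chromosome 9, 87725519 to 87731393, plus strand), a cysteine endopeptidase, was called higher in 6 of the 12 comparisons. At 300 nM it stood at 24.7, 25.7 and 27.3 TPM with fulvestrant, 22.9, 29.2 and 24.3 with SAR439859 and 25.1, 29.2 and 28.1 with GDC-SAR, against 19.3, 19.4 and 18.6 TPM with DMSO. With 30 nM CTSL stood at 30.9, 23.7 and 24.3 TPM with SAR439859, 31.2, 20.4 and 30.6 with AZD9496 and 26.4, 28.7 and 28.1 with AZD-SAR. These 18 libraries lay above the DMSO libraries. The rises were 0.42 with 300 nM fulvestrant (adjusted p = 0.0404), 0.39 with 300 nM SAR439859 (adjusted p = 0.0488), 0.50 with 300 nM GDC-SAR (adjusted p = 0.0137), 0.43 with 30 nM SAR439859 (adjusted p = 0.0266), 0.48 with 30 nM AZD9496 (adjusted p = 0.0322) and 0.52 with 30 nM AZD-SAR (adjusted p = 0.011), SE 0.145. The call with 30 nM AZD-SAR held without each library. That with GDC-SAR was lost without its replicate 2 (0.062), and the 4 others without each of the 3 DMSO libraries and without at least 1 treated library (adjusted p up to 0.212, without 300 nM SAR439859 replicate 2). With GDC-0810 CTSL differed by 0.06 at 300 nM and 0.10 at 30 nM and overlapped DMSO. All 12 differences of CTSL were above 0 (0.06 to 0.52), and 33 of 36 treated libraries lay above the 3 DMSO libraries. Scaling ended the calls with 300 nM fulvestrant (0.0627), 30 nM SAR439859 (0.0662) and 30 nM AZD9496 (0.233), and only the libraries compared ended those with SAR439859 at both doses and 30 nM AZD9496 (0.0589 to 0.134). The CTSL pseudogenes with values stood at 0.352 TPM or less.

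CTSF (chromosome 11, 66563463 to 66568841, minus strand), another cysteine protease, was called higher with both hybrids and with 300 nM fulvestrant. CTSF stood at 46.2, 46.7 and 52.1 TPM with 300 nM fulvestrant, 57.1, 59.2 and 48.0 with 300 nM GDC-SAR, 48.7, 63.8 and 48.5 with 300 nM AZD-SAR, 44.3, 46.3 and 66.1 with 30 nM GDC-SAR and 57.0, 56.5 and 51.8 with 30 nM AZD-SAR, against 40.8, 28.8 and 32.2 TPM with DMSO. All 15 libraries lay above the DMSO libraries. The rises were 0.51 with 300 nM fulvestrant (adjusted p = 0.0404), 0.68 with 300 nM GDC-SAR (adjusted p = 0.00598), 0.65 with 300 nM AZD-SAR (adjusted p = 0.00702), 0.60 with 30 nM GDC-SAR (adjusted p = 0.0143) and 0.70 with 30 nM AZD-SAR (adjusted p = 0.00505), SE 0.177. The calls with 300 nM GDC-SAR and 30 nM AZD-SAR held without each library. The 3 others were lost without DMSO replicate 2 (adjusted p 0.052 to 0.185) and without some treated library: any of the 3 with fulvestrant, replicate 2 with AZD-SAR (0.0598) and replicate 3 with GDC-SAR (0.121). These 3 were also lost with only the libraries compared (0.0546 to 0.067), and that with fulvestrant with scaling (0.064). All 12 differences of CTSF from DMSO were above 0 (0.22 to 0.70), and 28 of 36 treated libraries lay above the 3 DMSO libraries.

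The remaining cathepsins were called in 4 comparisons or fewer. CTSC, which activates granule proteases, was called lower, at -0.87 with 300 nM fulvestrant (adjusted p = 0.00801), -0.97 with 300 nM SAR439859 (adjusted p = 0.00263), -0.82 with 300 nM AZD-SAR (adjusted p = 0.00963) and -1.06 with 30 nM SAR439859 (adjusted p = 0.00105). CTSC averaged 3.29 ± 0.562 TPM with 300 nM SAR439859 and 7.36 ± 0.547 with DMSO, and the calls with SAR439859 held without each library, while those with fulvestrant and AZD-SAR were lost without fulvestrant replicate 3 (0.0844) and AZD-SAR replicate 1 (0.0817). All 12 differences of CTSC from DMSO were below 0 (-1.06 to -0.16), and 34 of 36 treated libraries lay below the 3 DMSO libraries. CTSK, the collagen-degrading protease of osteoclasts, was called higher with fulvestrant, by 1.17 at 300 nM and 1.26 at 30 nM (adjusted p = 0.0312 and 0.0202). CTSK stood at 3.06, 2.60 and 0.785 TPM with 300 nM fulvestrant and 1.31, 2.27 and 3.17 with 30 nM fulvestrant, against 0.235, 0.658 and 0.116 TPM with DMSO, and each call was lost without 2 of the 3 fulvestrant libraries of its dose and without DMSO replicate 1 or 3 (adjusted p up to 0.151). The markers of both other cell type lists summed to 11.9 to 16.9 TPM in these 6 fulvestrant libraries and 11.5 to 14.3 in the DMSO libraries. A higher CTSK level was not particular to fulvestrant. All 12 differences of CTSK from DMSO were above 0 (0.14 to 1.26), and 28 of 36 treated libraries lay above the 3 DMSO libraries. The highest group mean was 2.34 TPM, with 300 nM AZD9496, where CTSK was not called. CTSZ, a carboxypeptidase, was called lower with GDC-0810, at -0.74 at 300 nM and -0.56 at 30 nM (adjusted p = 0.00308 and 0.0202), the second lost without GDC-0810 replicate 1 or DMSO replicate 1 or 2 (up to 0.132). CTSV was called lower with 300 nM GDC-SAR (-0.60), CTSH higher with 30 nM SAR439859 (0.68) and CTSB higher with 30 nM AZD9496 (0.44). These 3 calls (adjusted p = 0.0485, 0.0136 and 0.0162) were lost without single libraries, any of the 6 for CTSV (up to 0.128), SAR439859 replicate 3 or DMSO replicate 3 for CTSH (up to 0.19), and AZD9496 replicate 1 or DMSO replicate 2 or 3 for CTSB (up to 0.11).

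LAMP1 and LAMP2 were each called in 1 of the 12 comparisons. At 300 nM LAMP1 (chromosome 13, 113297241 to 113323672, plus strand) stood at 62.0, 54.2 and 62.8 TPM with fulvestrant, 57.7, 58.6 and 71.7 with SAR439859, 55.7, 60.8 and 64.3 with GDC-0810, 73.0, 70.6 and 62.4 with AZD9496, 62.6, 64.3 and 63.9 with GDC-SAR and 61.3, 66.2 and 70.2 with AZD-SAR, against 63.8, 58.8 and 57.3 TPM with DMSO. At 30 nM LAMP1 stood at 65.8, 63.0 and 62.4 TPM with fulvestrant, 75.3, 54.7 and 63.9 with SAR439859, 59.9, 57.3 and 68.0 with GDC-0810, 82.3, 78.3 and 82.5 with AZD9496, 66.0, 64.5 and 59.2 with GDC-SAR and 65.1, 68.7 and 59.5 with AZD-SAR. Only the 3 libraries with 30 nM AZD9496 lay apart from DMSO as a group, above it. LAMP1 rose by 0.43 there (SE 0.104, adjusted p = 0.00692), a call that held without each library but was lost with scaling (0.109). In the other 11 comparisons the difference was -0.01 to 0.19 and was not called.

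At 300 nM LAMP2 (chromosome X, 120427827 to 120469365, minus strand) stood at 186, 161 and 145 TPM with fulvestrant, 185, 158 and 137 with SAR439859, 179, 170.5 and 161 with GDC-0810, 147, 133 and 115 with AZD9496, 177, 182 and 147 with GDC-SAR and 189, 214 and 144 with AZD-SAR, against 148, 133 and 124 TPM with DMSO. At 30 nM LAMP2 stood at 196, 146 and 154 TPM with fulvestrant, 166, 152 and 189 with SAR439859, 199, 155 and 149 with GDC-0810, 167, 149.6 and 149 with AZD9496, 175, 165 and 169 with GDC-SAR and 161, 155 and 153 with AZD-SAR. At 300 nM the GDC-0810 libraries lay above the DMSO libraries and the other groups overlapped them, and at 30 nM all groups but fulvestrant lay above them. LAMP2 was called with 300 nM AZD-SAR alone, by 0.41 (SE 0.142, adjusted p = 0.0307), where 1 of the 3 libraries lay within the DMSO range. That call was lost without AZD-SAR replicate 1 or 2 or DMSO replicate 2 or 3 (adjusted p 0.0812 to 0.197) and with only the 6 libraries compared (0.142). In the other 11 comparisons the difference was -0.04 to 0.33 and was not called.

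Other genes of the lysosome, from 4 lists of which 74 genes were tested, were read beside the members. Of 29 hydrolases and activators, 9 were called with 300 nM fulvestrant (7 higher), 11 with SAR439859 (7), 5 with GDC-0810 (3), 1 with AZD9496 (1), 12 with GDC-SAR (8) and 13 with AZD-SAR (10). At 30 nM 9 were called with fulvestrant (7 higher), 11 with SAR439859 (9), 7 with GDC-0810 (5), 7 with AZD9496 (7), 13 with GDC-SAR (10) and 10 with AZD-SAR (8). As shares of the 29, set against the share of all genes, these were 31% with fulvestrant (against 19.2%), 37.9% with SAR439859 (against 24.1%), 17.2% with GDC-0810 (against 16%), 3.45% with AZD9496 (against 5.93%), 41.4% with GDC-SAR (against 20.3%) and 44.8% with AZD-SAR (against 25.6%) at 300 nM. At 30 nM they were 31% with fulvestrant (against 19.1%), 37.9% with SAR439859 (against 25.5%), 24.1% with GDC-0810 (against 16.8%), 24.1% with AZD9496 (against 11.3%), 44.8% with GDC-SAR (against 22.5%) and 34.5% with AZD-SAR (against 20.6%). With GDC-0810 at 300 nM the share lay near that of all genes. FUCA1, the lysosomal fucosidase, averaged 16.0 ± 4.99 TPM with 300 nM AZD-SAR and 5.55 ± 1.17 with DMSO (1.34 with 300 nM AZD-SAR (adjusted p = 4.48e-05)). GLB1, the beta-galactosidase that CTSA protects, averaged 47.7 ± 3.16 TPM with 30 nM AZD-SAR and 29.6 ± 1.14 with DMSO (0.67 with 30 nM AZD-SAR (adjusted p = 0.000146)). FUCA1 and GLB1 were called with each ligand at both doses except 300 nM AZD9496 (adjusted p = 0.125 and 0.0525).

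Of 11 further genes for assembly and accessory parts of the pump, 1 to 4 were called at 300 nM, where 5.93% to 25.6% of all genes were called. The count of 4 was with SAR439859 (36.4%, against 24.1% of all genes). At 30 nM 1 to 2 were called, where 11.3% to 25.5% of all genes were called. DMXL1 was called higher with each ligand at both doses. DMXL1 belongs to the rabconnectin complex that reassembles V1 with V0, and averaged 39.6 ± 2.12 TPM with 300 nM fulvestrant, 33.3 ± 2.32 with 300 nM AZD9496 and 19.5 ± 0.821 with DMSO. Its rises at 300 nM were 0.99 with fulvestrant, 0.74 with SAR439859, 0.79 with GDC-0810, 0.74 with AZD9496, 0.78 with GDC-SAR and 0.90 with AZD-SAR (SE 0.174, adjusted p 0.000118 to 0.00783). WDR7, its partner, was called higher in 4 of the 12 comparisons (differences 0.00 to 0.90), and TCIRG1, the a3 stator form, lower in 2 (-1.01 to 0.42). Of 23 membrane proteins and channels, 0 with AZD9496 (against 5.93% of all genes) to 5 with AZD-SAR (21.7%, against 25.6%) were called at 300 nM. With 30 nM, 1 was called with AZD9496 (4.35%, against 11.3%) and up to 4, with SAR439859 (17.4%, against 25.5%) and with GDC-0810 (17.4%, against 16.8%). The sialic acid exporter gene SLC17A5 averaged 8.94 ± 1.37 TPM with 300 nM AZD-SAR and 3.95 ± 0.956 with DMSO (1.01 with 300 nM AZD-SAR (adjusted p = 0.000177)). SCARB2, a protein of the lysosomal membrane, averaged 26.2 ± 1.01 TPM with 300 nM fulvestrant and 17.6 ± 1.24 with DMSO (0.55 with 300 nM fulvestrant (adjusted p = 0.00442)). LAMTOR3, a scaffold of nutrient signalling on the lysosome, was called higher in 4 comparisons (-0.08 to 0.63).

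Of 11 genes for sorting, transcription factors and cathepsin inhibitors, 0 with SAR439859 (against 24.1% of all genes) and with GDC-SAR (against 20.3%) to 3 with GDC-0810 (27.3%, against 16%) and with AZD-SAR (27.3%, against 25.6%) were called at 300 nM. With 30 nM of the ligands 1 to 3 were called, where 11.3% to 25.5% of all genes were called. The count of 3 was with AZD-SAR (27.3%, against 20.6%). TFEB was called higher in 6 comparisons and stood at 4.68, 3.53 and 15.1 TPM with 300 nM fulvestrant, 19.0, 4.59 and 4.85 with 300 nM GDC-0810 and 8.27, 12.7 and 2.16 with 300 nM AZD-SAR, against 1.63, 1.68 and 1.54 TPM with DMSO. Libraries of 1 group differed several fold. The TFEB rises called at 300 nM were 1.51 with 300 nM fulvestrant (adjusted p = 0.0444), 1.73 with 300 nM GDC-0810 (adjusted p = 0.0254) and 1.50 with 300 nM AZD-SAR (adjusted p = 0.037), SE 0.532. The other 3 calls were at 30 nM. Over the 12 comparisons the TFEB differences ran from 0.48 to 1.96 (smallest adjusted p = 0.00857). Its highest group mean was 10.4 TPM, with 30 nM AZD-SAR. TFE3 and MITF were called in none of the 12 (-0.14 to 0.51 and -0.20 to 1.03). CST3, the secreted cathepsin inhibitor cystatin C, was called higher in 7 (0.21 to 0.73), with 400.0 ± 67.6 TPM with 30 nM AZD9496 and 239 ± 12.9 with DMSO. The mannose 6-phosphate receptor gene IGF2R, which sorts cathepsins, was called higher in 3 (0.21 to 1.27). These lists and examples were not refitted without single libraries.

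Ligands that differ by a named part were compared at matched dose in 14 pairs, and p was also adjusted jointly over all genes of the 14 pairs. Giving AZD9496 the SAR439859 side chain at 300 nM changed 5 members (14.7% of 34, against 8.57% of all genes). ATP6V1H was higher with AZD-SAR than with AZD9496 by 1.22 [95% interval 0.65 to 1.78] (adjusted p = 0.00655, and 0.0341 over the 14 pairs), and the 3 AZD-SAR libraries at 304, 288 and 158 TPM lay above the 3 AZD9496 libraries at 152, 87.8 and 80.9 TPM. ATP6AP2 differed by 0.56 [0.24 to 0.88], LAMP2 by 0.45 [0.16 to 0.74], ATP6V0A1 by -0.97 [-1.60 to -0.34] and ATP6AP1 by -0.64 [-1.04 to -0.24]. These 4 passed within the pair (adjusted p = 0.0267, 0.0427, 0.0472 and 0.0397) but not over the 14 pairs (0.107, 0.158, 0.171 and 0.148). The count of 5 was 0 without AZD9496 replicate 2 or AZD-SAR replicate 1, 3 without AZD9496 replicate 1, 1 without AZD9496 replicate 3 or AZD-SAR replicate 2, 10 without AZD-SAR replicate 3, 1 with no expression filter and 0 with only the 6 libraries compared, and the ATP6V1H call was lost without AZD9496 replicate 2 (0.0547) or AZD-SAR replicate 1 (0.0687). CTSD differed by -0.52 [-0.91 to -0.13] and was not called (adjusted p = 0.0788), although without AZD-SAR replicate 3 it was (0.00981).

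Giving GDC-0810 the same side chain at 300 nM changed 1 member (2.94%, against 1.25% of all genes). CTSA was higher with GDC-SAR than with GDC-0810 by 0.48 [95% interval 0.23 to 0.73] (adjusted p = 0.0453, and 0.069 over the 14 pairs), a call lost without any 1 of the 6 libraries (0.054 to 0.325) and with only those 6 fitted (0.389). CTSD did not pass, at 0.30 [-0.09 to 0.69]. At 30 nM neither side chain pair had a member called, against 1.28% of all genes for GDC-SAR and 1.68% for AZD-SAR. There were 4 members at an unadjusted p under 0.05 for GDC-SAR and 2 for AZD-SAR. ATP6V1H differed by 0.22 [-0.34 to 0.78] between AZD-SAR and AZD9496 at 30 nM. The difference between the side chain effects on the 2 scaffolds was called for 0 members by limma at either dose (15 at an unadjusted p under 0.05 at 300 nM and 4 at 30 nM). Of all 14404 genes, that difference was called for 1 at 300 nM and 0 at 30 nM. For ATP6V1H that difference was 0.99 [0.20 to 1.79] at 300 nM (adjusted p = 0.243) and for CTSD -0.82 [-1.37 to -0.27] (adjusted p = 0.196), and without AZD-SAR replicate 3 it was called for 5 members.

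**Figure D4:**
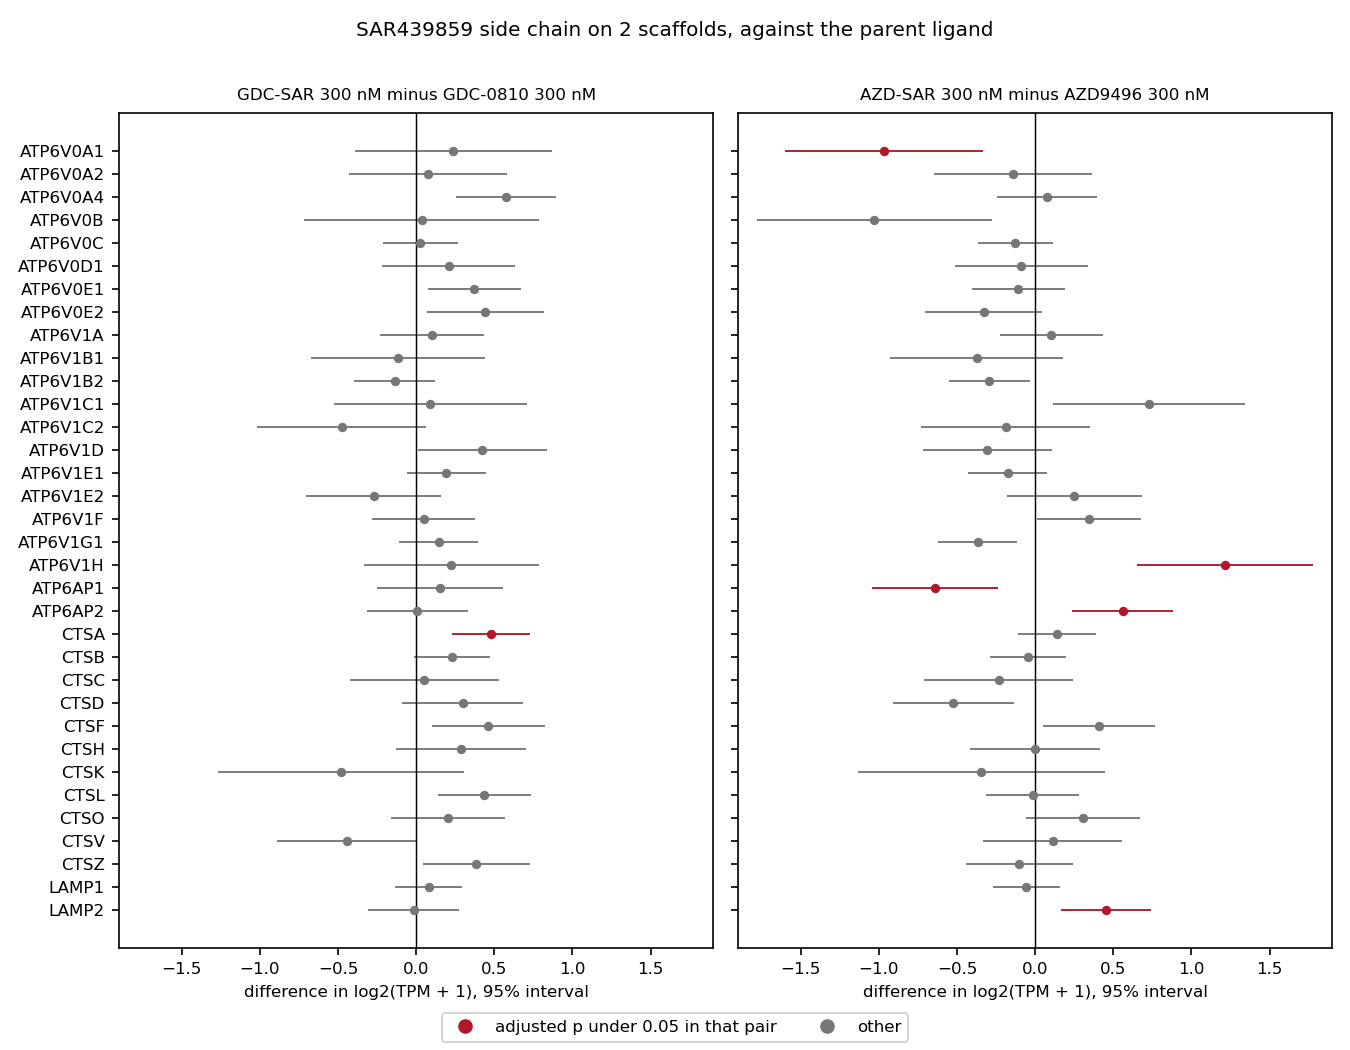
Differences in log2(TPM + 1) made by the SAR439859 side chain at 300 nM on the GDC-0810 scaffold (left) and the AZD9496 scaffold (right), hybrid minus parent ligand, for the 34 members tested. Points are estimates, lines 95% intervals, and red marks an adjusted p under 0.05 within the pair: CTSA at left, and ATP6V1H, ATP6AP2, LAMP2, ATP6V0A1 and ATP6AP1 at right.

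Between the scaffolds, AZD9496 against GDC-0810 at 300 nM had 1 member called (2.94%, against 1.12% of all genes), CTSZ at 0.67 [95% interval 0.32 to 1.01] (adjusted p = 0.0482, and 0.0647 over the 14 pairs). That count was 0 without any AZD9496 library or GDC-0810 replicate 1 or 2, and 6 without GDC-0810 replicate 3. CTSD was at 194, 208 and 182 TPM with AZD9496 and 93.5, 126 and 153 TPM with GDC-0810, a difference of 0.67 [0.28 to 1.06] that was not called (adjusted p = 0.056, 0.109 over the 14 pairs), but was without GDC-0810 replicate 3 (0.0203). At 30 nM 0 members were called between AZD9496 and GDC-0810 (against 0.0208% of all genes), with 12 members at an unadjusted p under 0.05. AZD-SAR and GDC-SAR, which share the side chain, had 0 members and 0 of 14404 genes called between them by limma at either dose. At an unadjusted p under 0.05 there were 3 members at 300 nM and 0 at 30 nM. AZD-SAR minus GDC-SAR was -0.15 [-0.54 to 0.24] for CTSD, -0.04 [-0.29 to 0.21] for CTSA and 0.30 [-0.26 to 0.86] for ATP6V1H at 300 nM.

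No member was called between either hybrid and SAR439859 or between SAR439859 and fulvestrant at either dose (0 called by limma in the 6 pairs, 1 to 4 members at an unadjusted p under 0.05). Of all 14404 genes, 0 were called in these pairs at 300 nM. At 30 nM 0.257% of all genes were called between GDC-SAR and SAR439859, 0.0555% between AZD-SAR and SAR439859 and 0.0139% between SAR439859 and fulvestrant. At 300 nM GDC-SAR minus SAR439859 was 0.25 [-0.14 to 0.64] for CTSD, AZD-SAR minus SAR439859 was 0.10 [-0.29 to 0.49], and SAR439859 minus fulvestrant was -0.26 [-0.65 to 0.13]. The distance from estimate to bound of the 95% interval was 0.37 at the median member and 0.789 at the widest. Without SAR439859 replicate 2 at 30 nM, 2 members were called in each hybrid's pair with it, and without replicate 1 there was 1 with AZD-SAR. Across all 6 ligands, an F test called 0 members at 300 nM (against 4.91% of all genes at the same adjusted threshold) and 0 at 30 nM (against 5.11%). At an unadjusted p under 0.05 there were 13 members at 300 nM and 7 at 30 nM. For this and every other count at an unadjusted p, the share of all genes at that threshold is not given. ATP6V1H had the lowest adjusted p of the F test at 300 nM, 0.0642, and 8 members were called without AZD-SAR replicate 3, 3 without fulvestrant replicate 2, 2 without GDC-0810 replicate 3, and 1 without fulvestrant replicate 3, AZD9496 replicate 1 or AZD-SAR replicate 1 or 2. At 30 nM the F test called 2 without SAR439859 replicate 2 and 1 without SAR439859 replicate 1.

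Whether 300 nM did more than 30 nM was tested within each ligand, and 0 members and 0 of 14404 genes were called by limma in any of the 6 comparisons. At an unadjusted p under 0.05 there were 0 members with fulvestrant, GDC-0810 and GDC-SAR, 1 with SAR439859 and 2 each with AZD9496 and AZD-SAR. With AZD9496 ATP6V1H was at 152, 87.8 and 80.9 TPM at 300 nM and 204, 152 and 172 TPM at 30 nM, a difference of -0.76 [-1.32 to -0.20] that was not called (adjusted p = 0.993). CTSD differed between 300 and 30 nM by -0.05 [-0.44 to 0.34] with fulvestrant, -0.26 [-0.65 to 0.13] with SAR439859, -0.01 [-0.40 to 0.38] with GDC-0810, 0.08 [-0.31 to 0.47] with AZD9496, 0.02 [-0.37 to 0.41] with GDC-SAR and -0.26 [-0.64 to 0.13] with AZD-SAR. Without 30 nM SAR439859 replicate 2, 1 member was called between the doses of SAR439859.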

How the data were processed

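Stranded total RNA libraries were made with a NuGEN kit, per the labels' protocols, and reads were aligned with STAR to GRCh38, per the submitters' processing notes. The authors deposited TPM values for 46706 symbols in 39 libraries, summing to 1000000 in each, with no counts, so depth is unknown. The counter is not given in the sources used here. Genes with a mean of at least 1 TPM (14404) were fitted on log2(TPM + 1) over all 39 libraries with limma 3.58.1 (R 4.3.3), an intensity trend and 26 residual degrees of freedom, Benjamini-Hochberg adjustment within each comparison, and calls at an adjusted p under 0.05. The comparisons were 12 of ligand with DMSO, 6 of dose, 14 of ligand pairs, 2 F tests and 2 interactions. The script was tested on simulated data.

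The members and lists were chosen with earlier results of these data known. CTSD, LAMP1, LAMP2 and up to 12 further members by number of calls are given by library, some of them only in the groups where they were called. Other members called are given mainly by their called differences, and members never called by range. Of each other lysosomal list the 3 genes with the most calls are named, except 1 that is not reported here. Gene positions are from GENCODE 29 and promoters from RefSeq. Alternatives were a pseudocount of 0.1, no filter, median-of-ratios scaling, only the libraries compared, each library left out, and, added after seeing the data, no 30 nM SAR439859 libraries.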

Additional observations from a re-analysis of the deposited data

How the results depend on the processing

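No result reversed. Only the larger moves in the counts of members called are listed below, and counts not listed moved too. With no filter on mean TPM every count against DMSO fell, such as from 13 to 9 with 30 nM AZD-SAR. Without the 30 nM SAR439859 libraries that with 300 nM SAR439859 rose from 8 to 12. The larger moves in counts were these. With no filter on mean TPM they were 8 with 30 nM SAR439859, 6 with 300 nM fulvestrant, 7 with 300 nM GDC-0810, 7 with 300 nM GDC-SAR, 0 for GDC-SAR minus GDC-0810, 1 for AZD-SAR minus AZD9496 and 0 for AZD9496 minus GDC-0810 at 300 nM. With median-of-ratios scaling they were 9 with 30 nM SAR439859, 0 for AZD9496 minus GDC-0810 and 2 for the F test at 300 nM. With only the libraries compared they were 14 with 30 nM fulvestrant, 2 with 30 nM SAR439859, 2 with 300 nM AZD9496, 7 with 300 nM AZD-SAR, and 0 in each of the 3 called ligand pairs. Without the 3 libraries with 30 nM SAR439859 they were 3 at 30 nM and 4 at 300 nM for AZD9496 minus GDC-0810, and 2 for the F test at 300 nM. The share of all genes called in each refit is not given, here or for the fits with a library left out. These moves therefore cannot be set against those of all genes. The cause was not tested.

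With each library left out in turn, counts against DMSO at 300 nM were 6 to 8 with fulvestrant, 6 to 9 with SAR439859, 6 to 12 with GDC-0810, 1 to 3 with AZD9496, 7 to 11 with GDC-SAR and 9 to 16 with AZD-SAR. At 30 nM they were 6 to 7 with fulvestrant, 8 to 13 with SAR439859, 5 to 7 with GDC-0810, 4 to 8 with AZD9496, 8 to 10 with GDC-SAR and 8 to 11 with AZD-SAR. Between ligands they were 0 to 2 for each hybrid minus SAR439859 at 30 nM, and at 300 nM 0 to 1 for GDC-SAR minus GDC-0810, 0 to 10 for AZD-SAR minus AZD9496 and 0 to 6 for AZD9496 minus GDC-0810. The F tests gave 0 to 2 at 30 nM and 0 to 8 at 300 nM, the interaction at 300 nM 0 to 5 and the dose comparison of SAR439859 0 to 1. A pseudocount of 0.1 ended 5 calls among the members given by library, all of ATP6V1B1. No paired analysis was possible because the labels number the libraries in 1 running series and give no number that groups share, and no fit used the listing order. Depth is unknown, so precision rests on 3 libraries a group.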
